A study of Mus musculus with 7 samples.

Results

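Transcripts of skeletal muscle fibres and of the progenitor cells that rebuild them were followed in RNA of eosinophils sorted from injured mouse muscle. The 32 genes were taken by symbol from a list of adult and embryonic sarcomere genes, satellite cell genes and myogenic factors, and all 32 were present among the 24421 genes of the count table. They comprise 25 fibre genes and 7 progenitor genes. Libraries of the genotype IL5-Tg (4) were set against libraries of the genotype WT (3). IL5-Tg names a transgene for interleukin-5, the cytokine that drives eosinophil production, and the labels do not say which promoter drives it or in which cells. Both groups shared the injury, given as muscle 3 days after ntx, an abbreviation that the labels leave unexplained, so no uninjured muscle is available for comparison. From the digested muscle, cells positive for CD45 and SiglecF, negative for NK1, Ly6G and CD3e and labelled CD11bing were sorted. The sources used here give no age, sex or strain and do not say whether each library is a different mouse, so the p-values below measure only the spread among libraries.

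In adult muscle, satellite cells lie quiescent on the fibre and express Pax7. After injury they enter the cell cycle with Myf5 and Myod1, commit to differentiation with Myog, fuse, and make new fibres that carry embryonic and perinatal myosin heavy chains before the adult ones. Contraction rests on thick filaments of myosin and thin filaments of actin, tropomyosin and troponin, with calcium released from and pumped back into the sarcoplasmic reticulum. The sort required CD45, a surface protein of blood cells that fibres and satellite cells do not carry, and the source of the muscle transcripts in the sorted samples was not tested. In such samples fewer muscle cells or fragments and less RNA in each cannot be told apart.

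Myod1 and Myog encode transcription factors that bind the E-box CANNTG, and Myog, Chrna1, Acta1 and Atp2a1 carry the contrasts between libraries given further on. The windows from 250 bases before to 50 bases after the start site (RefSeq, GRCm38.p6) are shown for 2 fibre genes and 2 genes of the differentiation step, with each CANNTG in capitals. Acta1 encodes skeletal actin (chr8:123894726-123895025, minus strand). Atp2a1 encodes the calcium pump of fast fibres (chr7:126463024-126463323, minus strand). Myog is myogenin (chr1:134289754-134290053, plus strand), and Chrna1 is the acetylcholine receptor alpha subunit (chr2:73580289-73580588, minus strand).
Acta1: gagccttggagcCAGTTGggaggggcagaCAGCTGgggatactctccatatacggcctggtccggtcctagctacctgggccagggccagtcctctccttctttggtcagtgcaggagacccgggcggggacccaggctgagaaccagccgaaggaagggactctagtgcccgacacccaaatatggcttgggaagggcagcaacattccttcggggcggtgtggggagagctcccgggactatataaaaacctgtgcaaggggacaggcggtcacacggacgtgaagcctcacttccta
Atp2a1: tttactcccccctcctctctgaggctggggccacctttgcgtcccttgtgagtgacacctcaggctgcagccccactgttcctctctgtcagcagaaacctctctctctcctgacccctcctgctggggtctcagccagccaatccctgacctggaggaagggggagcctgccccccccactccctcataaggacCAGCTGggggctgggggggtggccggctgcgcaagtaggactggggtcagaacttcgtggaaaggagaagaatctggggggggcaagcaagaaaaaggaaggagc
Myog: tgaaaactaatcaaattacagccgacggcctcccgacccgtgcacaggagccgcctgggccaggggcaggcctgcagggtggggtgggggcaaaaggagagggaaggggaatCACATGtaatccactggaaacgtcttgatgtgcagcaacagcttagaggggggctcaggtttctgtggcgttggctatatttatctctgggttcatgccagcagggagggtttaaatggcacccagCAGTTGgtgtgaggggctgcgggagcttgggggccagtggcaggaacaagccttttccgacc
Chrna1: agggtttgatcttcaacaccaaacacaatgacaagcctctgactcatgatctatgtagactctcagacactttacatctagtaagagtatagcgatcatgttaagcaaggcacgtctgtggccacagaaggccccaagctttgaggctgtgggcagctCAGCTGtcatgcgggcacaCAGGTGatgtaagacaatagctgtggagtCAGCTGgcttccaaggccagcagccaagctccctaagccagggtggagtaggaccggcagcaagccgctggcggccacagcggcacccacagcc
In Chrna1 the E-boxes began 92, 73 and 44 bases before the start site, and in Myog 138 and 12 bases before it. Atp2a1 held 1, beginning 55 bases before its start, and Acta1 held 2, at 238 and 221 bases. Of the 28 genes with a window, 22 held CANNTG on either strand, a sequence found in 72.3% of all 32851 windows. The narrower CAGCTG, a subset of CANNTG, was in 11 of the 28 and in 16.3% of all windows, and 10 of those 11 were fibre genes (of 22 with a window). The CArG box, known as the site of serum response factor, was in 3 of 28 (Acta1, Actc1 and Myh4) and in 1.63% of all windows. These matches describe the letters only. Myod1, Neb, Tnni2 and Tnnt3 had no window.

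The libraries held 9665093 to 17447106 reads assigned to genes. Levels are counts per 1000000 assigned reads (CPM) on totals scaled by the trimmed mean of M-values (TMM). The number of reads that a low gene most often had was 1, 1, 1 and 4 in IL5-Tg replicates 1 to 4 and 5, 8 and 12 in WT replicates 1 to 3, so a few reads in WT weigh less than the same number in IL5-Tg replicates 1 to 3. Lists of levels below run in this replicate order, and replicate numbers only name libraries. Il5 was at 348, 447, 338 and 368 CPM in IL5-Tg libraries, against 1.39, 0 and 0 CPM in WT. The sorted cell type was checked by Siglecf, the marker of the gate, which was at 597, 856, 470.1 and 526 CPM in IL5-Tg and 466, 251 and 648 CPM in WT libraries. All 10 eosinophil markers were detected in every library. They summed to 5007 to 9415 CPM in IL5-Tg and 3540.5 to 7060.4 CPM in WT libraries, led by the lipoxygenase gene Alox15 (4781 CPM on average in IL5-Tg and 3153 CPM in WT). The markers did not move together. On average 8 of the 10 were higher in IL5-Tg, against 52.1% of all genes tested, with Prg2 at 815 CPM in IL5-Tg and 120 CPM in WT. Ccr3 (739 CPM in IL5-Tg and 1112 CPM in WT) and Il5ra (66.6 CPM in IL5-Tg and 130 CPM in WT) were lower. Markers of other cells were present too. WT replicate 3 stood apart: its 11 fibroblast markers summed to 208 CPM and were lowest of all 7 libraries for 11 of 11, with 3 of them at 0, while the other 6 libraries summed to 2587 to 6049 CPM.

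Fibre RNA was present in all 7 libraries and was, on average, higher in IL5-Tg, with overlap between the groups. The 25 fibre genes together reached 1844, 663, 929 and 864 CPM in IL5-Tg libraries, against 557, 741 and 183 CPM in WT libraries. The IL5-Tg mean was 1075 ± 525 CPM (SD, n = 4) and the WT mean 494 ± 285 CPM (SD, n = 3), a log2 ratio of 1.12. IL5-Tg replicate 1 was the highest and WT replicate 3 the lowest, and WT replicate 2 lay above IL5-Tg replicate 2. The ratio was 0.73 without the first of these, 0.73 without WT replicate 3 and 1.54 without WT replicate 2. The sum is a description and carries no test. It was 0.180% of the assigned reads in IL5-Tg replicate 1 and 0.0167% in WT replicate 3. Fibroblast RNA moved with it in part: those markers summed to 5284, 2587, 3899 and 6049 CPM in IL5-Tg and 3681, 4277 and 208 CPM in WT libraries. The fibre sum divided by the fibroblast sum was 0.349, 0.256, 0.238 and 0.143 in IL5-Tg and 0.151, 0.173 and 0.877 in WT libraries, so WT replicate 3 was the library poorest in both but the richest in fibre RNA per fibroblast RNA. The part of fibroblast RNA in the fibre levels was not tested.

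**Figure D1:**
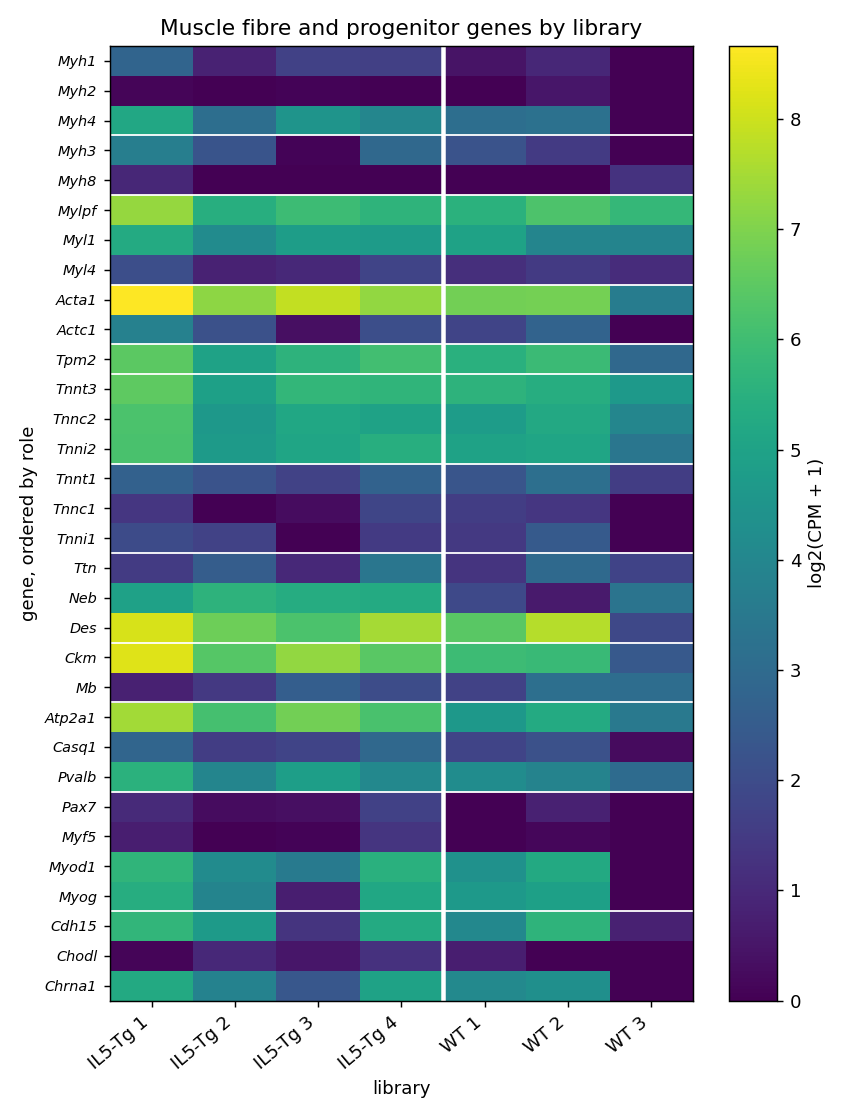
Level of each of the 32 genes in each library as log2(CPM + 1), with rows ordered by role, white lines between roles, and IL5-Tg libraries left of WT libraries. Acta1 in IL5-Tg replicate 1 has the highest level, and 13 of 32 genes are at 0 in WT replicate 3.

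Of the 32 genes, 27 passed the filter on low counts and were tested, and 0 passed edgeR's quasi-likelihood test at a Benjamini-Hochberg adjusted p under 0.05, where 0.41% of the 12428 genes tested did (0.338% higher and 0.0724% lower in IL5-Tg). At an unadjusted p under 0.05 there were 2 of 27, Neb and Atp2a1, both higher in IL5-Tg, against 9.04% of all genes in either direction and 3.49% higher. DESeq2 called these 2 genes, where it called 1.14% of all genes higher and 0.677% lower. A positive log2 fold change, meaning higher in IL5-Tg, was found for 23 of 27, against 52.1% of all genes tested. It exceeded 1 for 9 of 27, against 7.43% of all genes. The median was 0.66, against 0.026 over all genes. Without WT replicate 3 the fold change was positive for 23 of 29 tested, at a median of 0.35, and without IL5-Tg replicate 1 for 20 of 27, at 0.33. With the start that titles share as a block it was positive for 15 of 27, near the 52.4% of all genes in that fit, and above 1 for 4 of 27, at a median of 0.064. The groups did not overlap for 4 of the 27, all higher in IL5-Tg (Acta1, Ckm, Neb and Atp2a1), against 4.76% of all genes, and 0 lay wholly lower, against 4.6%. The members were chosen with results of these data known, so their counts are read only beside the background.

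**Figure D2:**
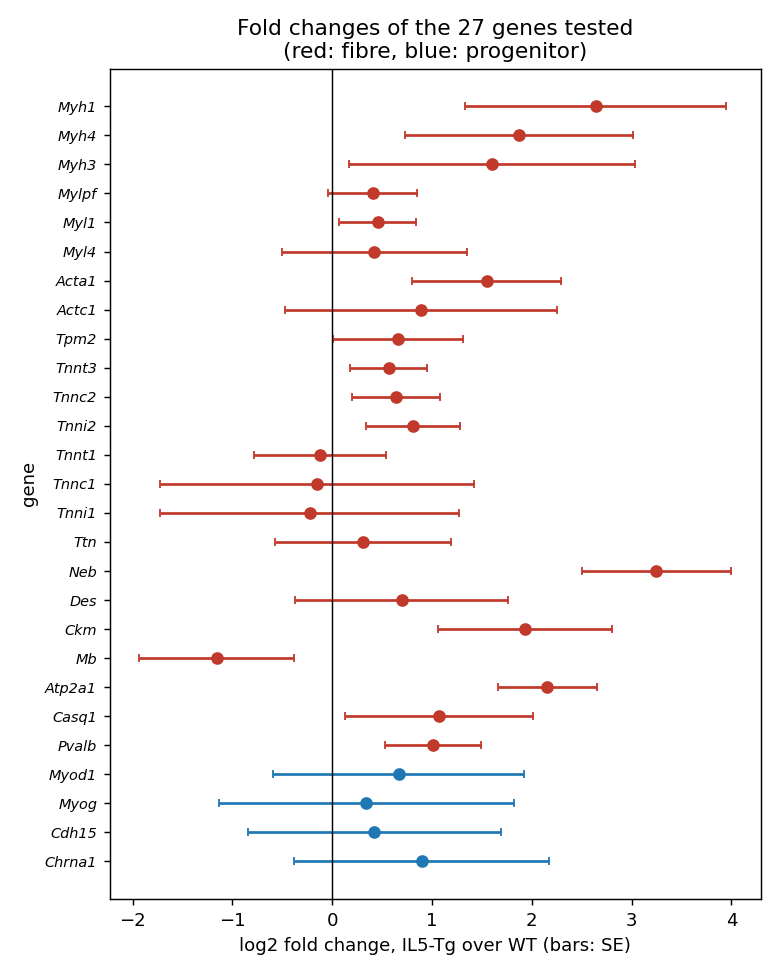
Fitted log2 fold change of each of the 27 tested genes, IL5-Tg over WT, with its standard error as a bar (edgeR, 4 against 3 libraries). Neb has the largest value at 3.25, Mb the lowest at -1.16, and the 4 progenitor genes lie between 0.34 and 0.90.

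Nebulin had the largest fold change of the 27 genes tested, and Atp2a1 the smallest p. Neb, on chr2:52136647-52378474 (mm10, GENCODE vM21, minus strand), encodes a giant protein that runs along the thin filament. The IL5-Tg libraries held 29.8, 48.0, 40.3 and 38.6 CPM of Neb, against 2.78, 0.528 and 9.07 CPM in WT libraries. In reads this was 318, 625, 554 and 745 in IL5-Tg, against 46, 5 and 96 in WT. Every IL5-Tg library lay above every WT library, and the 5 reads of WT replicate 2 are below that library's most common low count of 8. Neb averaged 39.2 ± 7.49 CPM (SD, n = 4) in IL5-Tg and 4.12 ± 4.43 CPM (SD, n = 3) in WT. The fitted difference was 3.25 ± 0.75 on the log2 scale (SE), with an adjusted p of 0.165 in edgeR. The call depended on the processing and on the libraries compared. The adjusted p was 9.39e-05 by DESeq2. By edgeR it was 0.00607 with each library's counts divided by its most common low count. By edgeR it was also 0.00155 without WT replicate 3 and 0.00108 with the start that sample titles share as a block. That block compares only IL5-Tg replicate 3 with WT replicate 1 and IL5-Tg replicate 4 with WT replicate 2. Both of these last fits thus leave out WT replicate 3, the highest WT library for Neb. The adjusted p spanned 9.39e-05 to 0.442 over all settings, with log2 fold changes of 2.75 to 4.75.

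Neb did not follow the other fibre genes across libraries. IL5-Tg replicate 1, highest for most fibre genes, was the lowest IL5-Tg library for Neb, and WT replicate 3, lowest for most, was the highest WT library. Neb reads were 7.36, 33.4, 17.2 and 25.6% of Acta1 reads in IL5-Tg and 2.48, 0.455 and 78.7% in WT libraries, a ratio that takes no account of gene length. Titin, the other giant sarcomere protein and the spring that links the myosin filament to the Z-disc, was different. Ttn was at 1.87, 4.92, 1.02 and 9.49 CPM in IL5-Tg and 1.45, 6.75 and 2.36 CPM in WT libraries (log2 fold change 0.31, edgeR adjusted p = 0.960), and the groups overlapped. Of the distinct 42-base stretches of Neb transcripts, the read length of these libraries, 0.0798% also occurred in another gene's transcripts.

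**Figure D3:**
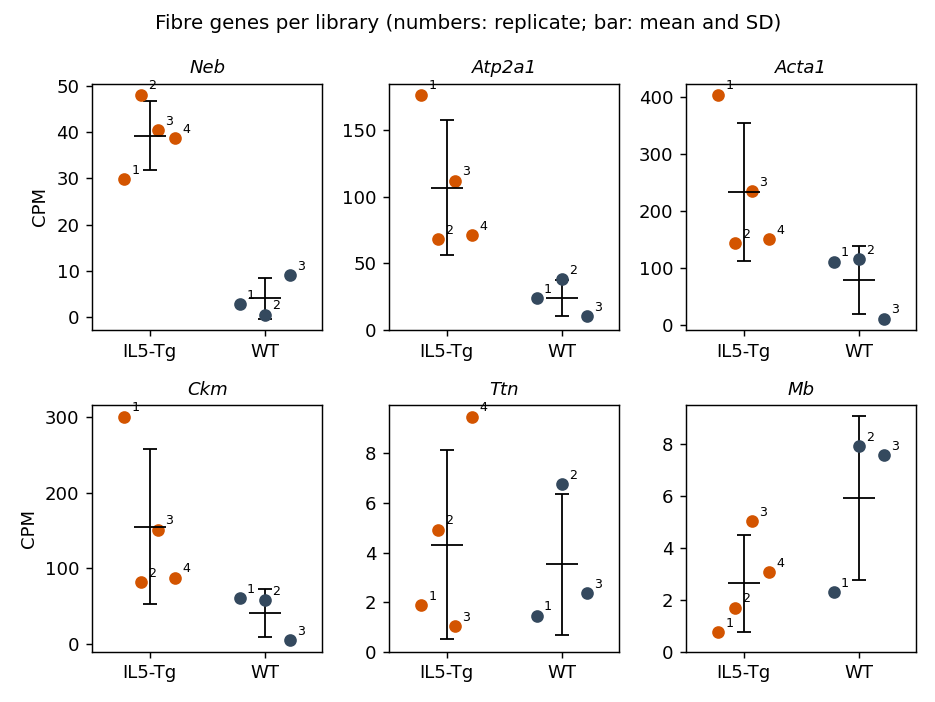
CPM of 6 fibre genes in each library, with the replicate number beside each point and the group mean and SD as bars, IL5-Tg left and WT right. Neb, Atp2a1, Acta1 and Ckm do not overlap between genotypes, Ttn and Mb do, and WT replicate 3 is the highest WT library for Neb but the lowest for Atp2a1, Acta1 and Ckm.

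Genes of calcium handling were led by Atp2a1, the fast-fibre pump that returns calcium to the sarcoplasmic reticulum (chr7:126445858-126463108, mm10, minus strand). It stood at 176, 68.0, 112 and 70.9 CPM in IL5-Tg libraries, against 23.7, 37.9 and 10.2 CPM in WT. No WT library reached the lowest IL5-Tg library. Atp2a1 averaged 107 ± 50.5 CPM (SD, n = 4) in IL5-Tg and 23.9 ± 13.8 CPM (SD, n = 3) in WT. The log2 difference was 2.16 ± 0.50 (SE), with an adjusted p of 0.148 in edgeR, and DESeq2 gave an adjusted p of 0.000836. Over all settings its adjusted p spanned 0.000836 to 0.486. Atp2a1 reads were 43.6, 47.3, 47.5 and 47.0% of Acta1 reads in IL5-Tg libraries, a narrow range, and 21.2, 32.7 and 88.5% in WT libraries, where the range was wide. Its locus overlaps Rabep2 on the opposite strand, and 18.6% of its 42-base stretches are shared with that gene on either strand. Rabep2 had 229, 330, 396 and 323 reads in IL5-Tg and 232, 240 and 172 reads in WT libraries, and the sources used here name no strand setting for the counting. Pvalb, parvalbumin, the calcium buffer of the fastest fibres, was at 45.4, 14.3, 27.8 and 15.7 CPM in IL5-Tg and 17.5, 13.6 and 7.18 CPM in WT libraries (log2 fold change 1.01, edgeR adjusted p = 0.584), with overlap. Casq1, the calcium store protein calsequestrin of fast muscle, had 65, 26, 33 and 126 reads in IL5-Tg and 40, 33 and 2 reads in WT libraries (log2 fold change 1.07).

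Among thin filament genes, Acta1 was the most abundant of the 32 by CPM per kilobase of exon in 6 of 7 libraries. Acta1 reached 404, 144, 235 and 151 CPM in IL5-Tg libraries, against 112, 116 and 11.5 CPM in WT libraries. It ranked 445 among all genes by CPM in IL5-Tg replicate 1 and 6749 in WT replicate 3. The groups did not overlap, and WT replicate 3 was the lowest by far of the WT libraries. The log2 fold change was 1.55 (SE 0.75, adjusted p = 0.631 in edgeR), and 1.05 without WT replicate 3. Ckm, the creatine kinase that regenerates ATP in muscle, had a similar order of libraries, at 301, 81.5, 151 and 87.2 CPM in IL5-Tg and 60.2, 57.3 and 4.35 CPM in WT (log2 fold change 1.93, SE 0.87, adjusted p = 0.584 in edgeR). Actc1, the cardiac actin that immature skeletal muscle also makes, had 140, 45, 4 and 62 reads in IL5-Tg and 40, 54 and 0 reads in WT libraries. IL5-Tg replicate 3 thus held 3229 reads of Acta1 and 4 of Actc1. Tpm2, a tropomyosin that lies along the actin filament, was at 89.0, 31.1, 47.0 and 64.4 CPM in IL5-Tg and 44.1, 59.2 and 6.61 CPM in WT (log2 fold change 0.66). The non-muscle actin gene Actb was at 10930.1, 14036, 11142 and 9704 CPM in IL5-Tg and 10785, 9965 and 13058 CPM in WT libraries (log2 fold change 0.023, edgeR adjusted p = 0.989). Acta1 shared 2.54% of its 42-base stretches with other genes, Actb among them, and Actc1 shared 0%.

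The troponins switch the thin filament on when calcium rises, and fast and slow fibres use different genes for each of the 3 subunits. The fast genes held most troponin reads in every library. Tnnt3 was at 90.9, 29.7, 52.1 and 50.2 CPM in IL5-Tg and 47.2, 41.3 and 24.2 CPM in WT libraries. Tnnc2, which binds calcium, was at 72.7, 23.6, 34.4 and 30.9 CPM in IL5-Tg and 26.4, 36.7 and 14.6 CPM in WT. Tnni2, the inhibitory subunit, was at 71.6, 25.7, 32.9 and 41.7 CPM in IL5-Tg and 30.8, 33.1 and 9.54 CPM in WT. All 3 overlapped between genotypes, at log2 fold changes of 0.57, 0.64 and 0.81 (edgeR adjusted p from 0.712 to 0.777). Tnnc2 overlaps Ube2c on the opposite strand and shares 52.6% of its 42-base stretches with it, so its reads are uncertain. The slow genes Tnnt1, Tnnc1 and Tnni1 had at most 107 reads in a library and log2 fold changes of -0.12, -0.15 and -0.23. Their share of troponin reads was 4.08, 7.06, 2.03 and 7.40% in IL5-Tg and 6.79, 11.2 and 3.94% in WT libraries. The lowest, IL5-Tg replicate 3, had 34 of 1673 reads (2.03%), with a 95% Wilson interval of 1.46% to 2.83%, and the highest, WT replicate 2, had 133 of 1186 reads (11.2%), with 9.54% to 13.1%. These intervals cover counting error only.

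Myosin heavy chain RNA was low, and the adult fast isoform Myh4 held most of its reads in 6 of 7 libraries. Myh4, the heavy chain of the fastest fibres, was at 35.5, 7.76, 21.3 and 14.8 CPM in IL5-Tg and 7.85, 8.33 and 0 CPM in WT libraries (log2 fold change 1.87, SE 1.14, adjusted p = 0.739 in edgeR), with 0 reads in WT replicate 3. Myh1, of the next fastest fibres, had 63, 10, 30 and 41 reads in IL5-Tg and 6, 9 and 0 reads in WT (log2 fold change 2.64, edgeR adjusted p = 0.620). Its log2 fold change was 1.95 without IL5-Tg replicate 1 and 3.79 without WT replicate 2. Myh2, of fast oxidative fibres, had 2 reads in all IL5-Tg libraries together and 4 in WT. The embryonic chain Myh3, a sign of newly formed fibres, had 129, 49, 1 and 127 reads in IL5-Tg libraries, against 61, 17 and 0 in WT (log2 fold change 1.60). IL5-Tg replicate 3 was low for it, although its Myh4 was the second highest of all. The perinatal chain Myh8 had 10, 0, 0 and 0 reads in IL5-Tg and 0, 0 and 15 in WT libraries, and the 15 reads of WT replicate 3 compare with its most common low count of 12. Myh3 and Myh8 made up 23.9, 30.6, 0.308 and 28.0% of the reads of the 5 heavy chain genes in IL5-Tg libraries and 31.0, 15.6 and 100% in WT libraries. The last value rests on 15 reads, and IL5-Tg replicate 3, at 1 of 325 reads (0.308%), had a 95% Wilson interval of 0.0543% to 1.72%. These genes lie in 1 cluster on chromosome 11 and are near-identical in part: 34.8% of the 42-base stretches of Myh1, 28.5% of Myh2, 22.8% of Myh4, 14.3% of Myh8 and 6.53% of Myh3 occur in another gene, so the division of reads among them is uncertain.

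Of the light chains, which clasp the neck of the myosin head, Mylpf and Myl1 were retained in WT replicate 3, in which heavy chain RNA was nearly absent. Mylpf, the regulatory light chain of fast fibres, was at 156, 42.3, 60.6 and 49.2 CPM in IL5-Tg and 45.3, 74.8 and 54.1 CPM in WT libraries (log2 fold change 0.41, SE 0.45, adjusted p = 0.893 in edgeR). WT replicate 3 was within the range of the other WT libraries here, and by CPM per kilobase Mylpf was the most abundant of the 32 genes in it, where Acta1 led in the other libraries. Mylpf reads divided by Acta1 reads gave 4.70 in WT replicate 3 and 0.258 to 0.645 in the other 6 libraries. Myl1, the essential light chain of fast fibres, was at 38.1, 17.0, 27.5 and 25.7 CPM in IL5-Tg and 30.8, 14.3 and 14.0 CPM in WT libraries (log2 fold change 0.45, edgeR adjusted p = 0.838). Myl4, the embryonic and atrial light chain, had 35, 10, 14 and 47 reads in IL5-Tg and 21, 17 and 12 reads in WT. The 12 reads of WT replicate 3 equal its most common low count. Mb, myoglobin, the oxygen store of oxidative fibres, had the lowest fold change of the 27, with 8, 22, 69 and 59 reads in IL5-Tg and 38, 75 and 80 reads in WT libraries (log2 fold change -1.16, SE 0.77, adjusted p = 0.764 in edgeR). Unlike Ckm, at 46 reads, it was not low in WT replicate 3. Mb shares 24.4% of its 42-base stretches with Gm49540.

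Des, desmin, the intermediate filament that ties sarcomeres together and that progenitors, fibres and smooth muscle all make, is counted here among the fibre genes. It was at 279, 107, 72.3 and 180.3 CPM in IL5-Tg and 87.1, 205 and 2.65 CPM in WT libraries (log2 fold change 0.70, SE 1.07, adjusted p = 0.924 in edgeR). Its order among IL5-Tg libraries, replicate 1 highest, then 4, 2 and 3, was that of Myod1, Myog, Cdh15 and Chrna1, whereas Acta1 and Ckm had replicate 3 in the second place. The 10 smooth muscle and pericyte markers summed to 215, 105, 142 and 214 CPM in IL5-Tg and 103, 190.1 and 14.3 CPM in WT libraries, with 5 of 10 at 0 in WT replicate 3, and their part in Des was not tested.

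Progenitor RNA varied more among libraries than between genotypes. The 7 genes summed to 181, 71.1, 17.5 and 153 CPM in IL5-Tg libraries, against 75.9, 135 and 0.756 CPM in WT libraries. They averaged 106 ± 74.9 CPM in IL5-Tg (SD, n = 4) and 70.6 ± 67.3 CPM in WT (SD, n = 3). The log2 ratio of means was 0.58. It was 0.000875 without WT replicate 3 and 1.46 without WT replicate 2, and it lay between 0.19 without IL5-Tg replicate 1 and 0.93 without IL5-Tg replicate 3 when 1 IL5-Tg library was left out. IL5-Tg replicate 3 and WT replicate 3 were low, and the other 5 libraries of both genotypes lay within 71.1 to 181 CPM.

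Genes of the early satellite cell were near the limit of detection. Pax7, which marks satellite cells, had 11, 3, 4 and 42 reads in IL5-Tg and 0, 7 and 0 reads in WT libraries. Myf5, an early myogenic factor, had 7, 0, 1 and 29 reads in IL5-Tg and 0, 1 and 0 in WT, and Chodl, the membrane lectin chondrolectin, had 1, 13, 6 and 26 reads in IL5-Tg and 11, 0 and 0 in WT. None of these 3 passed the filter on low counts. Most Pax7 and Myf5 reads came from IL5-Tg replicate 4. A count of 0 allows up to 0.181, 0.317 and 0.283 CPM in the WT libraries by 3 reads. By 3 times the most common low count it allows 0.905, 2.53 and 3.40 CPM. The IL5-Tg means of Pax7, Myf5 and Chodl were 0.932, 0.558 and 0.719 CPM. These means lay above the limits by 3 reads but below the low-count limits of WT replicates 2 and 3. A difference for these 3 genes was not tested in the main fit.

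Genes of activated and differentiating progenitors were well above the limit of detection in most libraries, but not in WT replicate 3. Myog and Cdh15 were also low in IL5-Tg replicate 3. Myod1, the factor of activated myoblasts, was at 49.3, 17.2, 10.5 and 43.8 CPM in IL5-Tg libraries, against 19.7, 37.5 and 0 CPM in WT (log2 fold change 0.66, SE 1.26, adjusted p = 0.939 in edgeR). Myog, which drives the exit into differentiation, was at 40.7, 14.1, 0.655 and 34.8 CPM in IL5-Tg and 24.0, 29.3 and 0 CPM in WT (log2 fold change 0.34, SE 1.48, adjusted p = 0.971 in edgeR). Cdh15, the adhesion protein M-cadherin of satellite cells and myoblasts, was at 51.0, 25.1, 1.46 and 38.6 CPM in IL5-Tg and 15.6, 48.7 and 0.756 CPM in WT (log2 fold change 0.42). Chrna1 was at 37.6, 13.4, 4.08 and 30.8 CPM in IL5-Tg and 15.9, 18.7 and 0 CPM in WT (log2 fold change 0.90). All 4 overlapped between genotypes and in all 4 IL5-Tg replicate 1 was the highest and IL5-Tg replicate 3 the lowest IL5-Tg library. In WT replicate 3, Myod1, Myog and Chrna1 had 0 reads and Cdh15 had 8, below that library's most common low count. With the shared title start as a block, which compares IL5-Tg replicate 3 with WT replicate 1 and IL5-Tg replicate 4 with WT replicate 2, the fold changes turned negative, at -0.34 for Myod1, -2.11 for Myog, -1.73 for Cdh15 and -0.58 for Chrna1. The labels do not say what a shared start means.

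**Figure D4:**
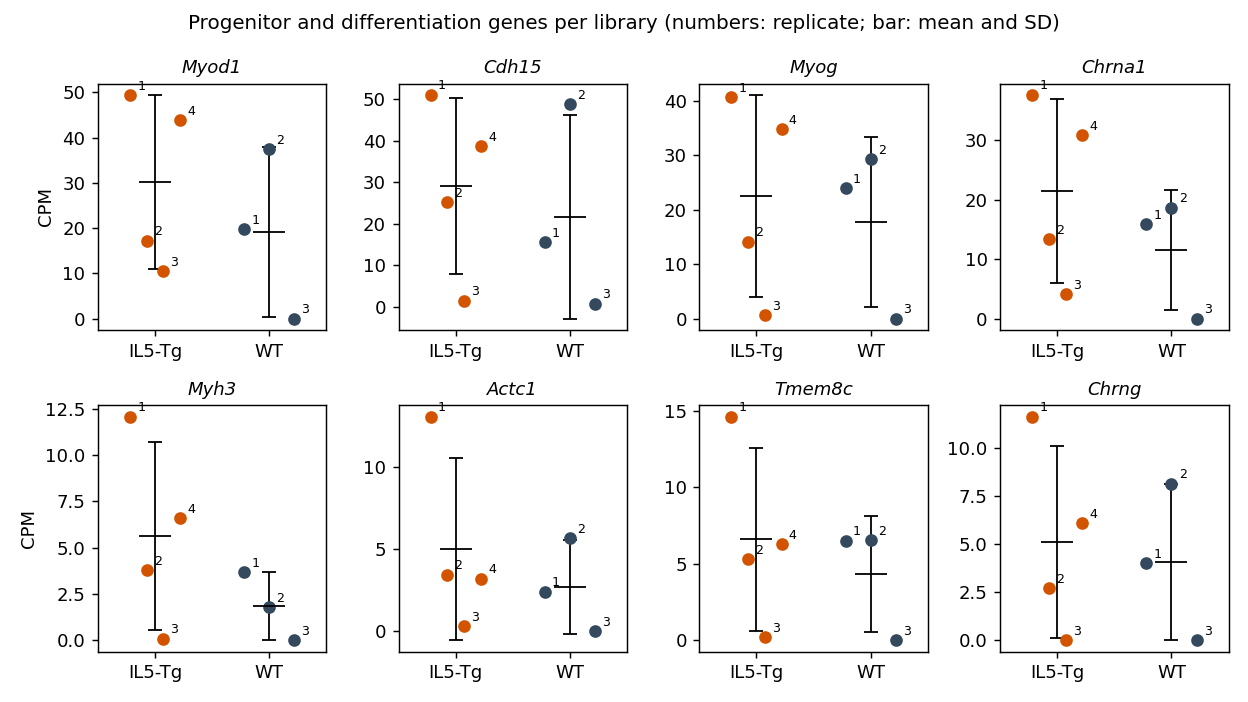
CPM of Myod1, Cdh15, Myog, Chrna1, Myh3, Actc1, Tmem8c and Chrng in each library, 8 genes chosen after their values were seen, with the replicate number beside each point and the group mean and SD as bars, IL5-Tg left and WT right. IL5-Tg replicate 3 and WT replicate 3 are the lowest libraries of their genotype in these 8 panels. The progenitor genes Pax7, Myf5 and Chodl are not drawn, and IL5-Tg replicate 3 is not the lowest IL5-Tg library for any of them.

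IL5-Tg replicate 3 combined abundant fibre RNA with little progenitor RNA. Its fibre sum of 929 CPM was the second highest of the 7, while the progenitor sum was 1.88% of it. That share was 9.79, 10.7 and 17.7% in the other IL5-Tg libraries and 13.6, 18.2 and 0.414% in WT libraries. Levels were uneven along the myogenic sequence. IL5-Tg replicate 3 held 144 reads of Myod1 but 9 of Myog and 1 of Myh3, and 0 of the slow troponin Tnni1. Not every gene of immature muscle was lowest there: the embryonic light chain Myl4 was at 1.02 CPM, against 0.768 CPM in IL5-Tg replicate 2. Its fibroblast and macrophage markers were not low: they summed to 3899 and 12091 CPM, within 2587 to 6049 CPM and at the top of 7879.5 to 12091 CPM over IL5-Tg libraries. In WT replicate 3, by contrast, both muscle sums and the fibroblast sum were the lowest of all libraries. This pattern was noticed in the data and was not tested.

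**Figure D5:**
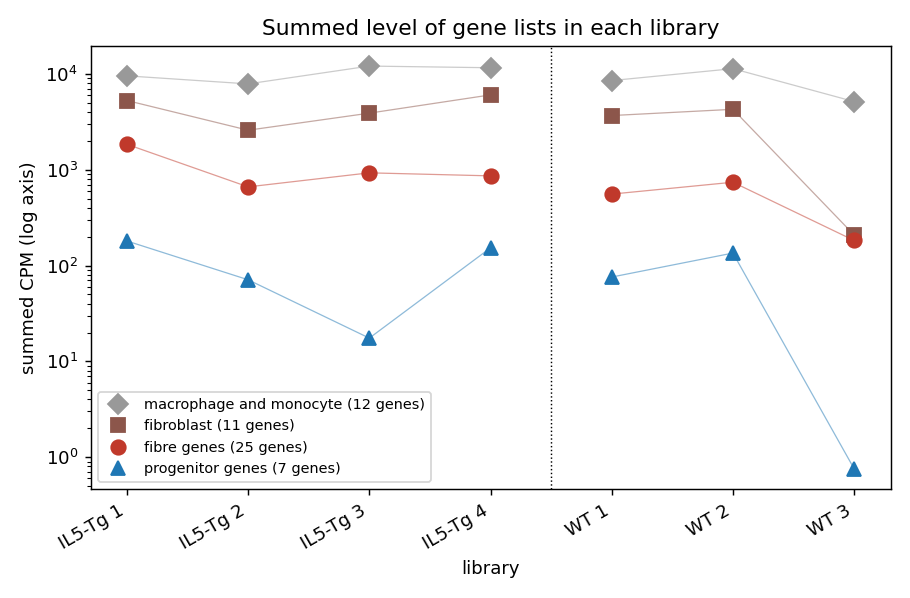
Summed CPM on a log axis of the 25 fibre genes, the 7 progenitor genes and the lists of fibroblast and macrophage markers in each library, IL5-Tg left of WT. Progenitor genes are lowest among IL5-Tg libraries in replicate 3, where the other 3 lists are not, and all 4 lists are lowest of all libraries in WT replicate 3.

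A wider set of 97 muscle genes, outside the 32, also gave 0 calls. Of them 95 were in the table and 74 were tested; 0 passed edgeR in either direction, against 0.41% of all genes, and 4 of 74 had an unadjusted p under 0.05, all higher in IL5-Tg, against 9.04% of all genes in either direction and 3.49% higher. The fold change was positive for 60 of 74, at a median of 0.60, against 52.1% and a median of 0.026 over all genes. It was positive for 50 of 80 at a median of 0.17 without WT replicate 3, and for 42 of 74 at a median of 0.20 with the title-start block, against 48.9% and 52.4% of all genes in those fits. In that library 61 of the 95 had 0 reads.

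Among other sarcomere and Z-disc genes, 24 of 30 tested were positive. Actn3, the alpha-actinin of fast fibres, was at 189.8, 67.9, 73.6 and 78.6 CPM in IL5-Tg and 28.3, 73.0 and 1.23 CPM in WT libraries (log2 fold change 1.59, edgeR adjusted p = 0.764). Flnc, a muscle filamin, had a log2 fold change of 0.38, and that of Mybpc2, fast myosin-binding protein C, was 2.11. Mylk2, the kinase of skeletal myosin light chains, had 57, 30, 54 and 37 reads in IL5-Tg libraries and 0 reads in all 3 WT libraries. Its pooled level of 3.14 CPM was at least 38.3-fold higher when the WT libraries together are given 3 reads. When they are given 36, which is 3 times the most common low count of 12 in WT replicate 3, it was 3.19-fold higher. Within WT replicate 3 alone, 36 reads equal 3.40 CPM, above the pooled level, so 3.19-fold is not a lower bound there. Mylk2 was the 1 wider gene that DESeq2 called (adjusted p = 7.03e-05), while its edgeR adjusted p was 0.0912, and 0.0268 without WT replicate 3. For excitation and calcium genes 12 of 13 were positive. The log2 fold change of Atp2a2, the slow-fibre and general calcium pump, was 0.33, that of Srl 0.86 and that of Cacng1, a calcium channel subunit, 0.66. Of energy genes 5 of 8 were positive, with the muscle glycogen phosphorylase Pygm at 35.1, 13.1, 29.6 and 16.7 CPM in IL5-Tg and 11.7, 10.8 and 8.97 CPM in WT (log2 fold change 1.17, edgeR adjusted p = 0.393), and log2 fold changes of 0.37 for the muscle enolase Eno3 and 0.53 for the phosphofructokinase Pfkm. Of the dystrophin complex and membrane genes 6 of 8 were positive, with log2 fold changes of 0.55 for Dag1, dystroglycan, and 0.48 for Sgcb.

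Other progenitor and fusion genes were positive for 13 of 15 tested. The most abundant were Itga7, the laminin receptor integrin alpha 7, at 501, 318, 174 and 875 reads in IL5-Tg and 199, 577 and 0 reads in WT libraries, Rapsn, which clusters acetylcholine receptors (log2 fold change 0.0074), and Fgfr4, a growth factor receptor (log2 fold change -0.53). Tmem8c, the older symbol of the fusion protein myomaker, was at 14.6, 5.30, 0.218 and 6.28 CPM in IL5-Tg and 6.52, 6.54 and 0 CPM in WT libraries. Gm7325, the older symbol of its partner myomerger, had 54, 26, 0 and 12 reads in IL5-Tg and 20, 8 and 0 reads in WT. Chrng, the embryonic acetylcholine receptor subunit, had 124, 35, 0 and 117 reads in IL5-Tg and 66, 77 and 0 reads in WT. These 3 were chosen after their values were seen. IL5-Tg replicate 3 was the lowest IL5-Tg library for 12 of the 20 genes in the table, and WT replicate 3 had 0 reads for 19 of 20, the exception being Ncam1, a neural adhesion molecule that myoblasts also carry.

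Markers of other cells that could accompany muscle tissue were compared with these sums. Macrophage and monocyte markers summed to 7879.5 to 12091 CPM in IL5-Tg and 5147 to 11358 CPM in WT libraries, endothelial markers to 144 to 264 CPM in IL5-Tg and 176 to 209 CPM in WT libraries, adipocyte markers to 166 to 358 CPM in IL5-Tg and 25.9 to 391 CPM in WT libraries and neural and Schwann markers to 163 to 224 CPM in IL5-Tg and 148 to 316 CPM in WT libraries. In WT replicate 3 the number at 0 was 0 of 12, 4 of 8, 1 of 5 and 5 of 6 in these lists. Neutrophil markers, whose surface protein Ly6G the gate excluded, summed to 2496 to 4282 CPM in IL5-Tg and 9203 to 10416 CPM in WT libraries, nearly all of it Retnlg (3233 CPM on average in IL5-Tg and 9656 CPM in WT). The sum does not speak for each neutrophil gene: 2 of the 6 tested, Ngp and Ltf, were higher in IL5-Tg, against 52.1% of all genes. Ngp averaged 28.2 CPM in IL5-Tg and 0.121 CPM in WT (log2 fold change 7.47, edgeR adjusted p = 0.00311). In each other list the most abundant gene averaged as follows. Ctsb, a lysosomal protease, had 3438 CPM in IL5-Tg and 2669 CPM in WT, and the collagen gene Col3a1 had 1160.3 CPM in IL5-Tg and 748 CPM in WT. Pecam1 of endothelium had 132 CPM in IL5-Tg and 131 CPM in WT, and Acta2, smooth muscle actin, had 52.6 CPM in IL5-Tg and 41.1 CPM in WT. Mbp, a myelin gene, had 174 CPM in IL5-Tg and 213 CPM in WT, and the lipase gene Lpl had 215 CPM in IL5-Tg and 131 CPM in WT. The contribution of these cells to the muscle gene levels was not tested.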

How the data were processed

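RNA of sorted muscle eosinophils was sequenced as paired 42-base reads from stranded mRNA libraries, per the labels' protocols, and the authors deposited raw read counts per gene symbol, 1 column per library, with no normalization. The submitters' processing notes name Bowtie, STAR and bcl2fastq 2.20, and the build mm10. The sources used here name no counting program, annotation or strand setting. The 2 rows that name no gene, reads of no feature and ambiguous reads, made up 9.15% to 18.2% and 0.750% to 0.943% of the reads per library and entered neither library sizes nor tests.

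Replicate pairs differed by 26.0 to 149 chi-square per gene, so none was counted as a repeat. Genotypes were compared by edgeR 4.0.16 (quasi-likelihood F test, R 4.3.3) on the deposited counts, with TMM, filterByExpr, robust estimation, genotype as the term and all 7 libraries. Standard errors came from the fold change and F. The most common low count is the count with most genes after averaging over 5 neighbouring counts. Alternatives were RLE, upper-quartile and muscle-free TMM scaling, DESeq2 1.42.0, limma 3.58.1 voom, estimation without robustness, other filters, division by the low count, a title-start block and leaving out libraries. The fit was tested on simulated data, with 50 genes changed at each size, all drawn from genes with a mean above 5 CPM. The recovery therefore does not cover lower genes, such as the members Myh1 and Ttn. The fit recovered 6% of 2-fold, 62% of 4-fold, 88% of 8-fold and 98% of 16-fold changes, with 3 false calls. The lack of a call therefore does not show that a gene is unchanged, above all at 2-fold. Values per library are given for genes with a mean of at least 10 CPM in a genotype and for all progenitor genes; of each wider list the called and the 3 most abundant genes are named, except 1 that is not reported here. Members and lists were chosen with earlier results of these data known. Positions, exon lengths and 42-base stretches are from GENCODE vM21.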

Additional observations from a re-analysis of the deposited data

Results flagged for a closer look

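Mylpf in IL5-Tg replicate 1, at 156 CPM, stood far from the other IL5-Tg libraries, at 42.3, 60.6 and 49.2 CPM; its gap to the nearest was 0.840 of the group's range. It was the 1 of 31 values checked this way, and chance flags about 1 in 20 groups. The same library was the highest IL5-Tg library for 19 of the 25 fibre genes.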

How the results depend on the processing

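No member passed in the main test and none lost a call. Of 472 member values over 18 settings, 441 kept their direction and side of the threshold and 6 became calls, 5 for Neb and 1 for Atp2a1. The number of members called was 2 with DESeq2 and 1 with counts divided by the low count, with the title-start block, without WT replicate 3, and without replicate 3 of both groups, an alternative added after seeing the data. The block and the fits without replicate 3 all leave WT replicate 3 out of the comparison of genotypes. Leaving out 1 library gave 0 to 1 members and 0 to 1 wider genes, and DESeq2 called 1 wider gene. The count of all genes called, 51, was 225 with DESeq2, 100 with counts divided by the low count, and 16 to 97 when 1 library was left out (16 without IL5-Tg replicate 1 and without IL5-Tg replicate 2, 17 without IL5-Tg replicate 3, 30 without IL5-Tg replicate 4, 19 without WT replicate 1, 97 without WT replicate 3). The members' median log2 fold change was 0.33 to 1.21 when 1 library was left out (lowest without IL5-Tg replicate 1, highest without WT replicate 2) and 0.064 with the title-start block. Without replicate 3 of both groups the share of developmental heavy chains was 4.21 percentage points higher in IL5-Tg, against -28.16 with all libraries, where WT replicate 3 enters with 15 reads of the 5 genes.

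Log2 fold changes that changed sign were, with the title-start block, Actc1 -1.76, Cdh15 -1.73, Chrna1 -0.58, Des -0.23, Myh3 -1.02, Mylpf -0.093, Myod1 -0.34 and Myog -2.11; with limma-voom, Tnni1 0.11 and Tnnt1 0.072; when 1 library was left out in turn, Actc1 -0.20 to 2.05, Cdh15 -0.13 to 1.86, Mylpf -0.19 to 0.65, Myog -0.22 to 0.94, Tnnc1 -0.9996 to 0.46, Tnni1 -0.79 to 1.05, Tnnt1 -0.47 to 0.55 and Ttn -0.43 to 1.21. The cause was not tested. By replicate number, no paired analysis was possible because the labels give no such numbers. The block that was run is the shared start of titles, which pairs IL5-Tg replicate 3 with WT replicate 1 and IL5-Tg replicate 4 with WT replicate 2. IL5-Tg replicates 1 and 2 and WT replicate 3 have no partner in it and do not enter its comparison of genotypes. Shares do not depend on TMM, so that alternative was not run for them. Low counts limit Pax7, Myf5, Chodl, Myh2 and Myh8.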
